A study of Mus musculus with 96 samples.

Results

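The chemokine gene Cxcl12 and the genes of its receptors, Cxcr4 and Ackr3, were followed in pancreatic islets and liver of mice on a high-fat diet (HFD) or a chow diet (CD). They are 3 of 20155 genes with values in the deposited table, found there by their symbols. This trio was chosen with values of these data in view, since Cxcr4 and Ackr3 had been noted as changed in islets. The islet values of all 3 genes by diet and week are therefore given as a description, without a test. Male C57BL/6N mice, purchased at 4 weeks of age, received HFD with 60% fat or CD with 13.5% fat, and carried no transgene or deletion. The paper states that the diets also differ in protein, carbohydrate, minerals and vitamins, so fat content cannot be told apart from these. Tissue was taken from 4 mice per diet after 4, 8, 12, 16, 20 or 24 weeks, so 48 mice gave 96 libraries, 1 of islets and 1 of liver from each mouse. The islets were isolated with collagenase and picked by hand, and liver pieces came from the same region. Levels are in FPKM, fragments per kilobase of transcript and per 1e+06 mapped fragments, and differences are HFD minus CD on the log2(FPKM + 1) scale unless another is named, a scale that understates the change of genes with low FPKM.

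CXCL12 is a chemokine secreted mainly by stromal and endothelial cells. It binds CXCR4, a receptor that signals through inhibitory G proteins and steers the migration and retention of leukocytes and progenitor cells. ACKR3, formerly CXCR7, is an atypical receptor that also binds CXCL12, recruits arrestin, and removes the chemokine from the surroundings without classical G protein signaling. In the pancreas the pathway is known for its part in development and in survival of islet cells, and in liver for the recruitment of leukocytes and for the sinusoidal endothelium and stellate cells.

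In the table, Cxcl12 (Entrez gene 20315) lies on the plus strand of chromosome 6 from 117168535 to 117181368 of GRCm38. Cxcr4 (Entrez gene 12767) is on the minus strand of chromosome 1 from 128588199 to 128592311, and Ackr3 (Entrez gene 12778) on the plus strand of chromosome 1 from 90203980 to 90215724. In GRCm38.p6 the RefSeq start of Cxcr4 is at 128592299, which lies inside the span given above, and the windows are counted from the RefSeq starts of that build. The 250 bases before each of these starts are printed because in HFD islets both receptors were higher and Cxcl12 was lower. They are RefSeq promoter windows of GRCm38.p6, at chr6:117168285-117168534 (plus) for Cxcl12, chr1:128592300-128592549 (minus) for Cxcr4 and chr1:90203730-90203979 (plus) for Ackr3, each 5′ to 3′ along its gene. Capitals mark GGGCGG, the GC box bound by SP1 family factors, or its reverse complement.
Cxcl12: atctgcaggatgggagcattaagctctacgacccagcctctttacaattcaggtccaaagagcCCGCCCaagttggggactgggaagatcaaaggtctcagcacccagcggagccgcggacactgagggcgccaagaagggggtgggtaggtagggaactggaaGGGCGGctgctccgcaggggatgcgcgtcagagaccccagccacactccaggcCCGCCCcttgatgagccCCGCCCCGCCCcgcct
Cxcr4: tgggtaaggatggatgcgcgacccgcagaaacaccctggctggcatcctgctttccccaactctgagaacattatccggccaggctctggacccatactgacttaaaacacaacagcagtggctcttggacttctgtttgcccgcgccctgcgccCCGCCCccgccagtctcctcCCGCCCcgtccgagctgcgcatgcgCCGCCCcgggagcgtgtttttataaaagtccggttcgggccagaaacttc
Ackr3: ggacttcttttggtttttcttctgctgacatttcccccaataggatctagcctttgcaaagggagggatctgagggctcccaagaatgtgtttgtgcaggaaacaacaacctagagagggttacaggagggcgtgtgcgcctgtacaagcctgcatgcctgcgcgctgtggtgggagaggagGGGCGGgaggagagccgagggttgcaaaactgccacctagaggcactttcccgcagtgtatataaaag
Both strands were searched for ACGTG, a form of the core of the hypoxia response element, and for CACGTG, an E-box that contains ACGTG. They were also searched for TGACTCA, an AP-1 site, and for GGGCGG. The form GCGTG of the hypoxia response element core was not searched for. The Cxcl12 window held 5 GGGCGG matches, of which 2 overlap each other, the Cxcr4 window 3 and the Ackr3 window 1. None of the other motifs searched was found in the 300 bases that run from 250 before to 50 after each start. Among 32851 such windows of the genome, 35.7% hold GGGCGG, 19.6% ACGTG, 7.15% CACGTG and 5.20% TGACTCA. A match is a description of the letters and not of binding.

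Defining genes were present under both tissue labels, with all 9 beta cell markers and all 9 hepatocyte markers at a median of at least 1 FPKM in islets and liver, respectively. Insulin transcripts took from 53.7% to 75.1% of the FPKM of an islet library, so all other genes together shared what remained of its total. Islet libraries also held exocrine RNA, with 11 acinar markers with sums of 6092 to 151000 FPKM in CD against 4026 to 50160 FPKM in HFD mice. Correlations of log2(FPKM + 1) between libraries lay between 0.967 and 0.998 in islets and between 0.964 and 0.997 in liver, and no pair was a copy. The number of reads behind a value is not in the table, so no counting interval was computed.

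Ligand and receptors had opposite levels in the 2 tissues. In CD mice, Cxcl12 ranged from 96.8 to 189.5 FPKM in liver, with a median of 131.8, and from 0.92 to 3.51 FPKM in islets, with a median of 2.12 (24 mice in each tissue). Every liver was above its own islets, and the means stood 63.3-fold apart. Cxcr4, the signaling receptor, ranged from 0.89 to 5.31 FPKM in CD islets, with a median of 1.81, and from 0.04 to 0.58 FPKM in CD liver, with a median of 0.305. Ackr3 ranged from 1.03 to 2.44 FPKM in CD islets and from 0.02 to 0.52 FPKM in CD liver. For both receptors each of the 24 mice had more in islets, and the means were 6.96-fold higher for Cxcr4 and 6.80-fold higher for Ackr3.

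**Figure D1:**
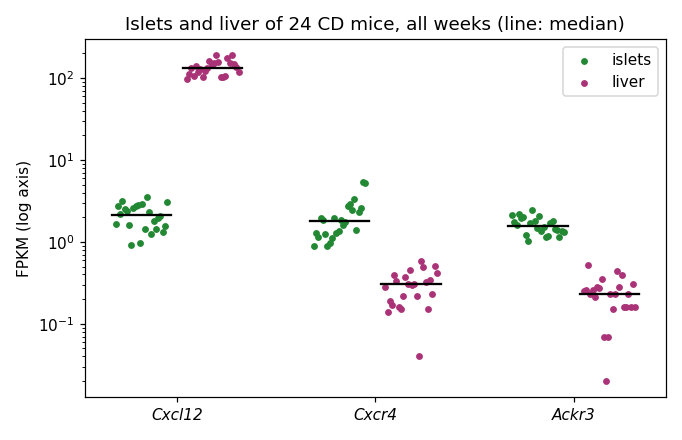
Points are the FPKM of single islet and liver libraries of 24 CD mice on a log axis, all weeks together, and lines are medians. Cxcl12 was higher in every liver library, at 96.8 FPKM or more, whereas Cxcr4 and Ackr3 stayed at or below 0.58 FPKM in liver.

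By limma, islets minus liver in CD mice was -5.45 for Cxcl12 (standard error 0.088, adjusted p = 3.9e-40) and 1.07 for Ackr3 (standard error 0.046, adjusted p = 6e-25). A difference between these tissues is common, with 95.4% of genes past an adjusted p of 0.05 and a median over all genes of 0.66. Cxcr4 was below 1 FPKM in too many liver libraries to be tested, and without that filter its difference was 1.16 (standard error 0.070, adjusted p = 9.3e-19), where 81.4% of genes passed. With the replicate block, which pairs the islets and liver of the same mouse, the difference of Cxcl12 remained -5.45 (adjusted p = 2.3e-40) and that of Ackr3 1.07 (adjusted p = 4.2e-25). With insulin left out of the islet totals, the tissue difference became -4.31 for Cxcl12, 2.27 for Cxcr4 and 2.15 for Ackr3, and the median of all genes became 2.03.

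In islets, Cxcr4 was the member with the widest range over diet and time. At week 4 the CD libraries had 0.90, 1.13, 1.27 and 1.94 FPKM and the HFD libraries 0.93, 0.98, 1.24 and 2.13 FPKM, so the groups overlapped. Week 8 gave 0.89, 0.96, 1.23 and 1.85 FPKM in CD against 1.24, 1.30, 2.23 and 2.29 FPKM in HFD mice, again with overlap. By week 12 the values were 1.1, 1.28, 1.34 and 1.93 FPKM in CD against 3.22, 3.51, 3.58 and 4.05 FPKM in HFD mice. From that week on, every HFD library was above every CD library of its week.

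At week 16, Cxcr4 reached 3.32, 5.74, 6.15 and 6.30 FPKM in HFD islets, beside 1.59, 1.77, 1.86 and 2.74 FPKM in CD islets. The week 20 libraries had 4.67, 6.97, 7.60 and 7.66 FPKM in HFD and 1.38, 2.48, 2.92 and 3.33 FPKM in CD mice. At week 24 the HFD values were 7.85, 9.52, 9.54 and 14.5 FPKM and the CD values 2.33, 2.62, 5.16 and 5.31 FPKM. The CD level thus also went up with time, from a mean of 1.31 ± 0.447 FPKM (SD, n = 4) at week 4 to 3.85 ± 1.60 FPKM at week 24, and the HFD level from 1.32 ± 0.557 to 10.3 ± 2.86 FPKM. The CD mean of week 24 rested on mice CD606 and CD608, without which it was 2.48 FPKM.

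The log2 difference of Cxcr4 was 0.00, 0.30, 0.94, 1.08, 1.15 and 1.25 from week 4 to week 24, and the ratio of group means stayed between 2.54 and 2.70 from week 12 on. In the order of the 12 islet group means, HFD at week 24 came first and did not overlap its neighbor, HFD at week 20, while the other 10 neighboring pairs overlapped. The highest CD mean, that of week 24, stood between HFD at weeks 16 and 12. With insulin left out of the islet totals the difference was 1.60 at week 12 and 1.60 at week 16, where the median of all genes was 0.48 and 0.36.

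**Figure D2:**
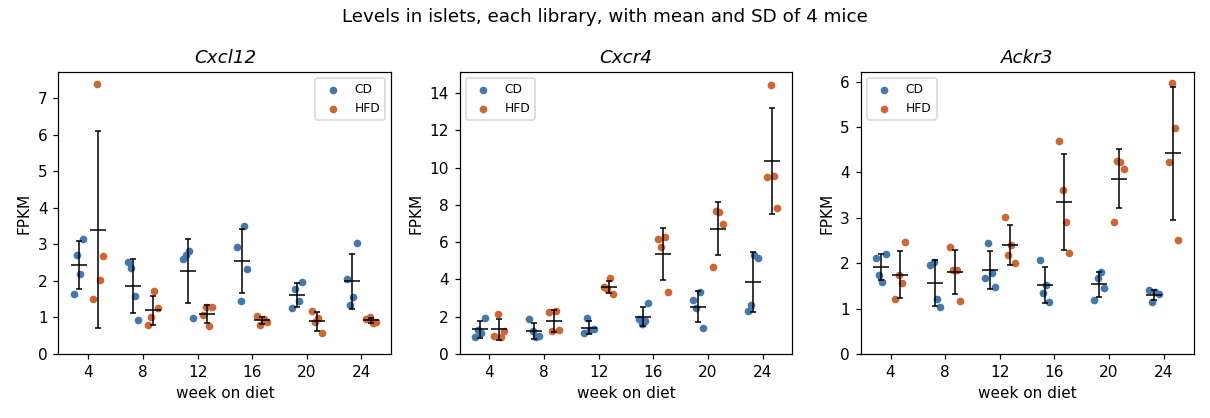
Points are the FPKM of single islet libraries by week on diet (blue CD, orange HFD), and bars give the mean and SD of 4 mice. HFD libraries of Cxcr4 lay above all CD libraries of the same week from week 12 and those of Ackr3 from week 16. HFD libraries of Cxcl12 lay below all CD libraries of the same week from week 16.

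Ackr3, the scavenging receptor, parted later than Cxcr4. Weeks 4, 8 and 12 overlapped, with differences of -0.10, 0.14 and 0.26. At week 16 the HFD islets had 2.22, 2.90, 3.61 and 4.70 FPKM and the CD islets 1.15, 1.35, 1.51 and 2.08 FPKM. Week 20 gave 2.91, 4.08, 4.22 and 4.25 FPKM in HFD and 1.19, 1.45, 1.68 and 1.81 FPKM in CD mice. By week 24 the HFD values, 2.50, 4.23, 4.98 and 5.97 FPKM, all lay above the CD values of 1.14, 1.31, 1.36 and 1.40 FPKM.

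The difference of Ackr3 at weeks 16, 20 and 24 was 0.77, 0.94 and 1.19, and the HFD mean was 2.21, 2.52 and 3.39 times the CD mean. In CD islets its mean went from 1.92 ± 0.292 FPKM (SD, n = 4) at week 4 to 1.30 ± 0.114 FPKM at week 24, the opposite direction to Cxcr4 in the same libraries. All 11 neighboring pairs in the order of its 12 islet means overlapped. With insulin left out, the difference was 0.76 at week 12, 1.28 at week 16 and 1.17 at week 20. The median of all genes in these fits was 0.48, 0.36 and -0.005.

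Cxcl12, the ligand, was lower in HFD islets from week 8, and the groups did not overlap from week 16. At week 4 the CD values were 1.64, 2.20, 2.72 and 3.15 FPKM and the HFD values 1.51, 2.03, 2.67 and 7.38 FPKM. The value of 7.38 FPKM came from mouse HFD113, and without it the difference of week 4 changed from 0.21 to -0.16. At week 8 the difference was -0.35, and the groups overlapped, with CD208 at 0.92 and CD207 at 1.59 FPKM both below HFD213 at 1.72 FPKM. At week 12 it was -0.60, and CD308, at 0.98 FPKM, was the 1 CD library within the HFD range of 0.77 to 1.29 FPKM.

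At week 16, Cxcl12 had 1.44, 2.32, 2.92 and 3.51 FPKM in CD against 0.80, 0.88, 0.95 and 1.03 FPKM in HFD islets. Week 20 gave 1.26, 1.45, 1.79 and 1.97 FPKM in CD against 0.56, 0.87, 0.97 and 1.17 FPKM in HFD mice, and week 24 gave 1.33, 1.55, 2.04 and 3.03 FPKM against 0.85, 0.86, 0.95 and 1.01 FPKM. The differences were -0.85, -0.47 and -0.61. The HFD means of weeks 8 to 24 were the 5 lowest of the 12 islet groups, although each overlapped its neighbor in the order. As background, the share of all tested islet genes whose groups of 4 did not overlap was 4.22%, 17.2%, 10.4%, 15.4%, 14.6% and 16.1% from week 4 to week 24, and nothing is read from the 3 genes against it because they were chosen for this contrast.

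Several marker lists differed with diet in the same islet libraries, and their part in the member values was not tested. In bulk tissue, fewer cells of a type and less RNA per cell cannot be told apart. The mean log2(FPKM + 1) of 7 alpha cell markers was lower in HFD mice in all 6 weeks, by 0.99 on average, and that of 5 delta cell markers by 0.81, also in all 6 weeks. Alpha marker sums ran from 7236 to 16060 FPKM in CD against from 1222 to 15250 FPKM in HFD mice, and delta marker sums from 2177 to 4844 and from 331.1 to 3996 FPKM. The 9 beta cell markers differed by 0.07. The 11 endothelial markers, 10 of them at a median of at least 1 FPKM, differed by 0.01, with sums of 170.9 to 262.5 FPKM in CD against 181 to 272.2 FPKM in HFD mice. The 10 stromal markers, 8 of them at that level, differed by -0.11 and were lower in 5 of 6 weeks, with overlap in each, with sums of 27.0 to 96.2 and 39.2 to 95.8 FPKM. The 9 ductal markers, 6 of them at that level, differed by -0.17, with sums of 204.6 to 285.8 and 172.9 to 291.2 FPKM, and at week 16, when the Cxcl12 difference was -0.85, they differed by -0.47 without overlap. The acinar markers differed by -1.54 at week 12 and -1.45 at week 16, both without overlap, and by 1.00 with overlap at week 20.

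Leukocyte markers were examined because CXCR4 is abundant on lymphocytes and myeloid cells. The 9 macrophage markers had sums of 41.2 to 92.4 FPKM in CD against 36.4 to 113.4 FPKM in HFD islets, and their mean log2 level differed by 0.08. Of 8 B cell markers, 1 had a median of at least 1 FPKM, and of 9 T cell and 6 neutrophil markers none did, though none of them was at 0 in every library. The B cell marker mean differed by -0.09, -0.02, -0.02, -0.53, -0.30 and -0.94 from week 4 to week 24, with overlap in all 6 weeks. At week 24, the CD mice with 5.16 and 5.31 FPKM of Cxcr4, CD608 and CD606, had B cell sums of 39.2 and 41.5 FPKM, against 10.5 and 7.12 FPKM in CD601 and CD605, and the HFD mice lay between 3.63 FPKM (HFD614) and 8.49 FPKM (HFD617). Without CD606 and CD608, which were left out after seeing the data, the week 24 difference of Cxcr4 was 1.68 in place of 1.25.

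The spread between mice of the same group was examined apart from the diet contrast. With every group mean subtracted, 84 relations were examined over the 48 libraries of a tissue, with two-sided permutation tests within groups and adjustment over all 84. Cxcr4 and Ackr3 varied together in islets, with Pearson's r = 0.51 (adjusted p = 0.011) and Spearman's rho = 0.52 (adjusted p = 0.0095). Without the 2 libraries farthest from the median of Cxcr4, r was 0.48 (adjusted permutation p = 0.016), and after median ratio scaling it was 0.45 (adjusted permutation p = 0.030). Islet Cxcl12 had r = 0.31 with Cxcr4 (rho = 0.28, adjusted p = 0.14 by permutation for r and 0.21 for rho) and r = 0.24 with Ackr3 (rho = 0.25, adjusted p = 0.29 and 0.26 by permutation), neither past the threshold.

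Islet Cxcl12 varied with the markers of supporting cells. Its r was 0.68 with the ductal list (rho = 0.60), 0.67 with the stromal list (rho = 0.63) and 0.64 with the endothelial list (rho = 0.55), with adjusted permutation p of 0.0013, 0.0020 and 0.0013 for r and 0.0067, 0.0038 and 0.0090 for rho. These values were 0.66, 0.60 and 0.61 without the 2 farthest libraries, and 0.63, 0.65 and 0.62 after median ratio scaling. Alpha (r = 0.38, rho = 0.39) and delta markers (r = 0.35, rho = 0.39) also passed, with adjusted permutation p of 0.017 and 0.041 for r, and lost the threshold after median ratio scaling (adjusted permutation p = 0.055 for both). With the macrophage list r was 0.50 (rho = 0.44, adjusted permutation p = 0.026). That relation lost the threshold without the 2 farthest libraries (r = 0.39, adjusted permutation p = 0.076). Mouse HFD113, with the highest Cxcl12, had a stromal sum of 93.9 FPKM, and CD308, with 0.98 FPKM of Cxcl12, a stromal sum of 27.0 FPKM.

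The receptors had other partners. Islet Cxcr4 had r = 0.63 with the B cell list (rho = 0.57, adjusted permutation p = 0.0057 and 0.0095) and r = 0.55 with the T cell list (rho = 0.46, adjusted permutation p = 0.031 and 0.051), which were 0.67 and 0.58 without the 2 farthest libraries. Its r with the macrophage list was 0.39 (rho = 0.40, adjusted permutation p = 0.047 and 0.051) and 0.32 after median ratio scaling (adjusted permutation p = 0.12), whereas the B and T cell lists still passed there. Islet Ackr3 had r = 0.51 with the endothelial list (rho = 0.52, adjusted permutation p = 0.020 and 0.016), also 0.51 without the 2 farthest libraries but 0.40 after median ratio scaling (adjusted permutation p = 0.069). With the stromal list it had r = 0.44 (rho = 0.43, adjusted permutation p = 0.041 and 0.053), a relation that lost the threshold without those libraries (r = 0.41, adjusted p = 0.060). The points of each relation share a library and its composition.

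**Figure D3:**
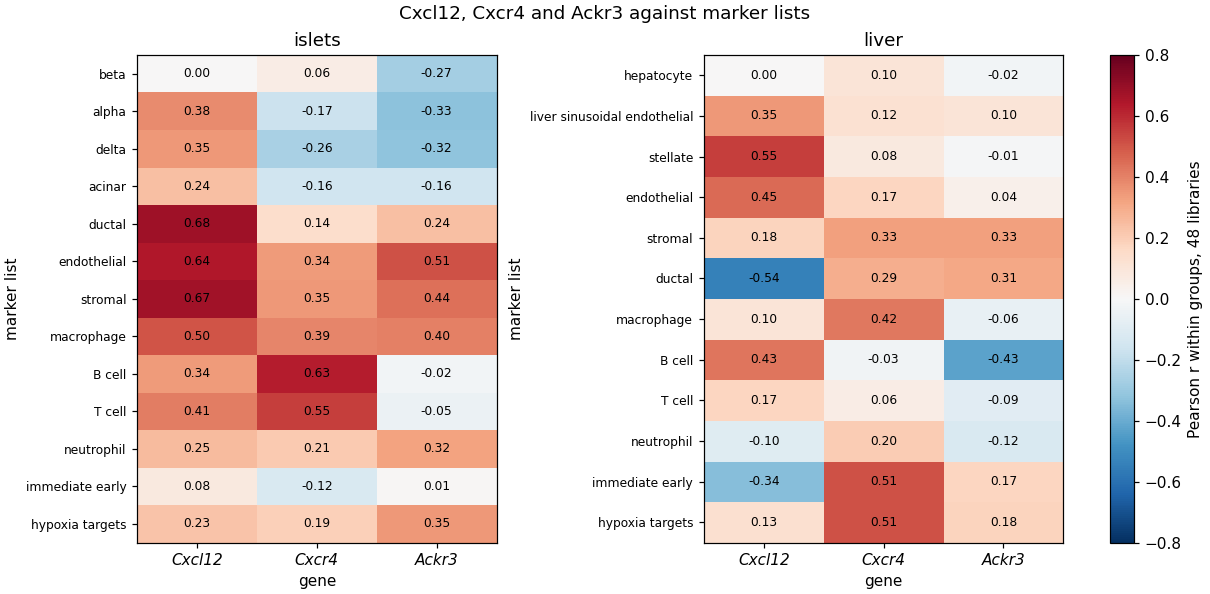
Each cell gives Pearson's r, over 48 libraries of a tissue and after subtraction of diet and week means, between a gene (columns) and the mean level of a marker list (rows), red positive and blue negative. In islets Cxcl12 had its highest r with ductal, stromal and endothelial lists (0.68, 0.67 and 0.64), Cxcr4 with the B cell list (0.63) and Ackr3 with the endothelial list (0.51).

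The genes whose pattern over the 48 islet libraries was most like each member were ranked by Pearson's r of log2(FPKM + 1) among 11933 genes. For Cxcl12 these were Vwf, an endothelial clotting factor gene (r = 0.90), Tgm2, a transglutaminase gene (0.89), the matrix gene Fbln2 (0.88), the intermediate filament gene Vim (0.87) and the complement gene C7 (0.86), and within groups their r still lay between 0.73 and 0.84. For Cxcr4 they were Cpne4 (0.93), Stk33 (0.91), Slc35f4 (0.90), Mkx (0.89) and Rapgef5 (0.88), with r of 0.24 to 0.59 within groups. For Ackr3 they were Brinp2 (0.85), Klhl29 (0.85), the HDL receptor gene Scarb1 (0.83), Rapgef5 (0.83) and Dync1i1 (0.83), with 0.40 to 0.60 within groups. Rapgef5, a guanine nucleotide exchange factor gene, was on the lists of both receptors.

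In liver, Cxcl12 was abundant and lower in HFD mice on average over the weeks. CD livers had 96.8, 106.2, 111.3 and 131.6 FPKM at week 4, and HFD livers 96.8, 106.7, 111.7 and 162.1 FPKM, with nearly the same range. At week 12, which had the lowest adjusted p, CD livers had 122.4, 132.1, 143.2 and 159.1 FPKM and HFD livers 93.1, 107.1, 115.0 and 125.0 FPKM, and the top HFD value overlapped the lowest CD value. Week 24 gave 118.7, 134.9, 147.9 and 189.5 FPKM in CD against 92.0, 110.7, 124.3 and 132.2 FPKM in HFD mice.

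The groups overlapped in all 6 weeks, and over the weeks 24 CD livers had a median of 131.8 FPKM and 24 HFD livers one of 112.5 FPKM. The log2 difference was 0.08, -0.21, -0.34, -0.27, -0.20 and -0.35 from week 4 to week 24, with adjusted p of 0.84, 0.42, 0.085, 0.40, 0.71 and 0.34 by limma, so no single week passed. In the same weeks 0.0506%, 7.49%, 10.6%, 7.43%, 2.47% and 0.837% of tested liver genes passed, and the groups of 7.88%, 15.1%, 18.1%, 13.9%, 9.09% and 10.1% did not overlap. The mean effect of HFD over the 6 weeks passed, at -0.22 (standard error 0.074, adjusted p = 0.017, lower in 5 of 6 weeks), as did 41.3% of all tested genes. Its direction was opposite to the median of all genes, which was 0.07, and after median ratio scaling the mean effect was -0.30 (adjusted p = 0.0012). Median ratio scaling also brought week 12 past the threshold (-0.46, adjusted p = 0.043), as did leaving out mouse CD304 (-0.40, adjusted p = 0.044). In week 4 the direction turned without mouse HFD114 (-0.08).

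In CD livers, the mean of Cxcl12 was 111.5 ± 14.7 FPKM (SD, n = 4) at week 4 and 147.8 ± 30.3 FPKM at week 24, and the change over weeks did not pass (adjusted p = 0.29, limma F test), while 56.1% of tested genes did. Without the filter on low values, chosen for this test after seeing the data, 33.7% of genes passed, and the adjusted p was 0.38 for Cxcl12, 0.26 for Cxcr4 and 0.34 for Ackr3.

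**Figure D4:**
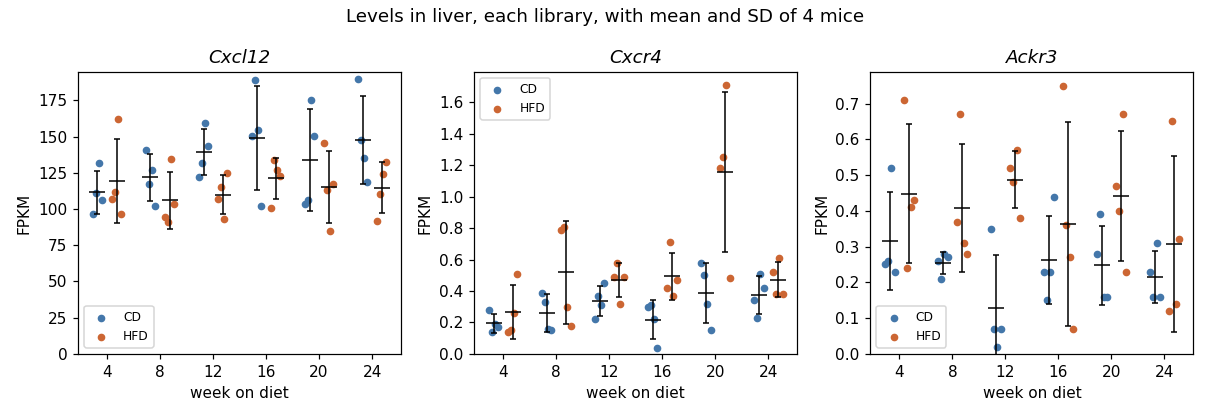
Points are the FPKM of single liver libraries by week on diet (blue CD, orange HFD), and bars give the mean and SD of 4 mice. Cxcl12 overlapped between diets in every week, and both receptors stayed below 1 FPKM apart from 3 HFD libraries of Cxcr4 at week 20.

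Both receptors were rare in liver, and without the filter on low values their mean level was higher in HFD mice. Cxcr4 reached 1 FPKM in none of 24 CD and 3 of 24 HFD libraries, and Ackr3 in none of 48, so neither was tested under the filter of 1 FPKM. The difference of Cxcr4 was largest at week 20, with 0.15, 0.32, 0.50 and 0.58 FPKM in CD against 0.48, 1.18, 1.25 and 1.71 FPKM in HFD livers, where 1 HFD mouse overlapped the CD range. Its groups were apart in week 16 only, with 0.04, 0.22, 0.30 and 0.31 FPKM in CD against 0.37, 0.42, 0.47 and 0.71 FPKM in HFD livers. Ackr3 was apart in week 12 only, with 0.02, 0.07, 0.07 and 0.35 FPKM in CD against 0.38, 0.48, 0.52 and 0.57 FPKM in HFD livers. Of tested liver genes, which do not include these receptors, 13.9% had groups apart at week 16 and 18.1% at week 12.

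Without the filter, the mean effect over 6 weeks was 0.24 for Cxcr4 (standard error 0.054, adjusted p = 0.00047 by limma) and 0.18 for Ackr3 (standard error 0.049, adjusted p = 0.0039 by limma), and 30.5% of genes passed in that fit. Both were higher in 6 of 6 weeks, but the sign turned without 1 mouse for Cxcr4 at week 4 (-0.01 without HFD118) and for Ackr3 at week 16 (-0.04 without HFD411) and week 24 (-0.03 without HFD614). By week, 0.00599%, 3.17%, 4.16%, 5.07%, 0.668% and 0.451% of genes passed without the filter. Ackr3 at week 12 was past the threshold there (0.41, standard error 0.089, adjusted p = 0.043). Cxcr4 was not past it in any week, and its lowest adjusted p were 0.11 at week 16 and 0.17 at week 20. Its week 20 difference was 0.61, and without mouse HFD518, the lowest HFD library, it was 0.78. With 2 decimals, values this low have at most 2 digits.

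Stromal, macrophage and stellate cell markers moved in the same direction in these livers, and their part in the receptor values was not tested. The mean log2 level of 10 stromal markers was higher in HFD livers in all 6 weeks, by 0.66 on average, with sums of 31.4 to 103.1 FPKM in CD against 56.8 to 186.8 FPKM in HFD mice. That of 9 macrophage markers was also higher in all 6 weeks, by 0.51, with sums of 39.7 to 120.7 and 47.4 to 268.4 FPKM, and that of 7 stellate cell markers by 0.27. The sinusoidal endothelial, endothelial and neutrophil lists differed by 0.15, 0.11 and 0.12, each higher in 4 weeks and lower in 2. The ductal list differed by 0.10, higher in 5 of 6 weeks. The T cell list differed by 0.02 and the B cell list by -0.03, the latter lower in 4 of 6 weeks. The 9 hepatocyte markers were lower in all 6 weeks, by 0.35. At week 20, the mouse with the highest Cxcr4, HFD517 at 1.71 FPKM, had the highest macrophage, stromal and ductal sums of any liver, 268.4, 186.8 and 612.3 FPKM, and without it the week 20 difference was 0.49. The mean level of 11 immediate early genes was also higher in HFD livers in 5 of 6 weeks, by 0.58 on average. It differed by 1.53 at week 20, and the groups overlapped in every week. The part of these genes in the Cxcr4 values was not tested.

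Within groups, liver Cxcl12 had r = 0.55 with the stellate list (rho = 0.59, adjusted permutation p = 0.0052 and 0.0038), 0.45 with the endothelial list (rho = 0.49, adjusted permutation p = 0.012 and 0.012), 0.43 with the B cell list (rho = 0.45, adjusted permutation p = 0.026 and 0.028) and -0.54 with the ductal list (rho = -0.52, adjusted permutation p = 0.0095 and 0.016). Without the 2 farthest libraries these were 0.59, 0.45, 0.40 and -0.55, and after median ratio scaling the B cell list lost the threshold (r = 0.34, adjusted permutation p = 0.072). None of the 8 B cell markers had a median of 1 FPKM in liver. So Cxcl12 followed the stellate list among mice of a group, although HFD mice had more of that list and less Cxcl12.

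Liver Cxcr4 had r = 0.51 with immediate early genes (rho = 0.49, adjusted permutation p = 0.018 and 0.028) and 0.51 with hypoxia targets (rho = 0.44, adjusted permutation p = 0.026 and 0.040). Without the 2 farthest libraries the first was 0.54, and the second lost the threshold (r = 0.34, adjusted permutation p = 0.060). Its r with the macrophage list was 0.42 (rho = 0.36, adjusted permutation p = 0.058 and 0.088). Ackr3 in liver passed with none of the 12 marker lists.

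Among the members in liver, r was -0.17 for Cxcl12 with Cxcr4 (rho = -0.15, adjusted permutation p = 0.56 and 0.58), -0.35 for Cxcl12 with Ackr3 (rho = -0.33, adjusted permutation p = 0.078 and 0.13) and 0.16 for Cxcr4 with Ackr3 (rho = 0.15, adjusted permutation p = 0.56 and 0.57). Between islets and liver of the same mouse, r was 0.03 for Cxcl12 (rho = 0.09), 0.12 for Cxcr4 (rho = 0.13) and 0.16 for Ackr3 (rho = 0.06), with adjusted permutation p for r of 0.93, 0.65 and 0.61. No relation among these 6 passed.

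**Figure D5:**
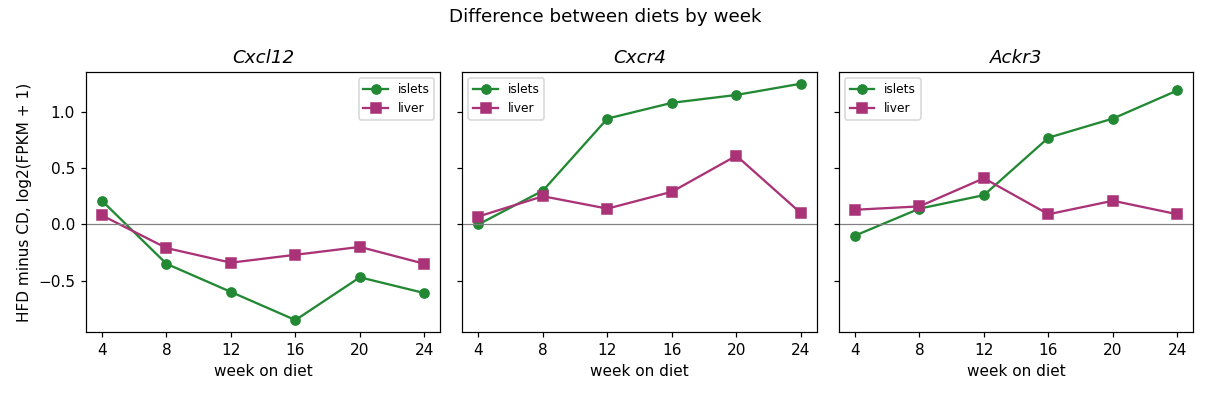
Lines give the HFD minus CD difference in log2(FPKM + 1), for means of 4 mice each, against week on diet in islets (green circles) and liver (purple squares). In islets Cxcr4 went from 0.00 to 1.25 and Ackr3 from -0.10 to 1.19, while in liver Cxcl12 lay between -0.35 and 0.08.

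The most similar genes in liver were ranked among 10407 genes. For Cxcl12 they were Dcaf6 (r = 0.65), Trim24 (0.62), Usp28 (0.60), Acot3 (0.60) and Tomm40l (0.59), with r of 0.49 to 0.70 within groups. Cxcr4 was most like Ets2, a transcription factor gene (0.84), Cd14, the coreceptor gene for lipopolysaccharide (0.84), Klf6 (0.82), Gnb1, a G protein beta subunit gene (0.81), and Plek, a platelet and leukocyte gene (0.81), with 0.60 to 0.74 within groups. For Ackr3 they were Adamtsl2 (0.67), Mmp2, a matrix metalloproteinase gene (0.60), Smoc2 (0.59), Timp2, a metalloproteinase inhibitor gene (0.58), and Parp1 (0.56), with 0.39 to 0.65 within groups.

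Other genes of the pathway were taken from 6 lists of 61 genes in all, 60 of which are in the table. In islets, 0 of 44 tested passed at week 4 by limma, 5 of 42 at week 8, 2 of 43 at week 12, 4 of 43 at week 16, 2 of 43 at week 20 and 7 of 44 at week 24. Of all islet genes, 0%, 5.27%, 4.53%, 8.45%, 4.74% and 8.30% passed in these weeks, and at week 4 there were 854 with an unadjusted p under 0.05. The median difference of the listed genes lay between -0.12 and 0.05 and that of all genes between -0.11 and 0.08. Of these 20 calls, 9 were higher and 11 lower in HFD mice.

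Among ligands and their processing, Mif, a cytokine that also binds CXCR4, had 55.0 ± 2.50 FPKM (SD, n = 4) in CD against 65.2 ± 2.81 FPKM in HFD islets at week 24 (0.24, adjusted p = 0.047 by limma), a call that was lost after median ratio scaling (0.15, adjusted p = 0.20) and in each of 8 fits without 1 mouse. Penk, the precursor gene of enkephalins, which ACKR3 binds, was lower at week 24 (-0.64, adjusted p = 0.0024), with 1.08 ± 0.0705 FPKM in CD against 0.350 ± 0.206 FPKM in HFD islets. It reached the filter in that week only through the CD mice, and without the filter its adjusted p was 0.0075. At weeks 8 to 20, when it was under the filter, its differences were -0.63, -0.76, -1.07 and -0.72. Hmgb1, whose protein forms a complex with CXCL12, was lower at week 8 (-0.26, adjusted p = 0.032). Dpp4, the peptidase that inactivates CXCL12, did not pass in any week and had 15.2 ± 1.98 FPKM in CD against 13.6 ± 1.37 FPKM in HFD islets at week 24.

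Among the receptors of these ligands, Cd44, a coreceptor of CD74 for MIF, passed in 4 weeks and was higher in each, at 0.71 in week 12, 0.85 in week 16, 0.79 in week 20 and 0.86 in week 24 (adjusted p = 0.00099, 4.6e-05, 0.0041 and 0.00012 by limma). Its islet level at week 16 was 6.59 ± 0.528 FPKM in CD against 12.7 ± 1.71 FPKM in HFD mice (SD, n = 4). Cd74 itself had 120 ± 35.0 FPKM in CD against 79.0 ± 42.2 FPKM in HFD islets at week 24 (-0.82, adjusted p = 0.49), while its difference was 0.28 at week 12 and 0.51 at week 20 (adjusted p = 0.072 and 0.16), and it did not pass in any week. Of the other 5 atypical receptors, none passed in islets. Ccrl2 and Pitpnm3 were tested, and Pitpnm3 had 15.3 ± 1.35 FPKM in CD against 18.3 ± 3.61 FPKM in HFD islets at week 24. Ackr1, on venular endothelium and erythroid cells, was under the filter, with 0.757 ± 0.465 FPKM in CD against 0.145 ± 0.0957 FPKM in HFD islets at week 16.

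Among signaling genes, the inhibitory G protein alpha gene Gnai1 and the gamma subunit gene Gng2 moved in opposite directions in islets. Gnai1 was lower at weeks 12, 16 and 24 (-0.64, -0.76 and -0.82, adjusted p = 0.0015, 0.00019 and 4.8e-05 by limma), with 8.36 ± 0.978 FPKM in CD against 4.28 ± 0.248 FPKM in HFD mice (SD, n = 4) at week 24. With insulin left out, its week 12 difference was -0.24 and did not pass (adjusted p = 0.18 by limma), where the median of all genes was 0.48. After median ratio scaling the week 12 difference of Gnai1 was -0.65 (adjusted p = 0.0028 by limma). Gng2 was higher at weeks 16, 20 and 24 (0.50, 0.54 and 0.85, adjusted p = 0.0059, 0.041 and 4.5e-05 by limma), with 2.57 ± 0.293 FPKM in CD against 5.44 ± 0.447 FPKM in HFD mice at week 24. Gnai2, Akt1 and Stat3 were lower at week 8 (-0.42, -0.30 and -0.32), when the median of all genes was -0.11, and after median ratio scaling only Gnai2 of the 5 genes called in that week passed (-0.30, adjusted p = 0.047). Ptk2b was lower at week 24 (-0.33, adjusted p = 0.032). In receptor regulation, the arrestin gene Arrb1 was lower at week 16 (-0.47, adjusted p = 0.040), and the receptor kinase gene Grk5 at week 8 (-0.38, adjusted p = 0.047). Epas1, which encodes HIF-2 alpha, was higher at week 24 (0.44, adjusted p = 0.015). Of the 20 islet calls, 14 held after median ratio scaling, 10 with insulin left out and 12 in every fit without 1 mouse, and none changed direction. Those lost in at least 1 fit without 1 mouse were Hmgb1, Akt1, Grk5, Arrb1, Mif, Ptk2b, Epas1 and the week 20 call of Gng2. Calls over all islet genes fell at week 8 from 613 to 165 after median ratio scaling and to 105 with insulin left out. Median ratio scaling also lowered them at week 24 and raised them at weeks 12, 16 and 20. Leaving insulin out lowered them at weeks 20 and 24 and raised them at weeks 12 and 16. Averaged over 6 weeks in islets, 12 of 42 listed genes tested passed, 5 higher and 7 lower, against 37.8% of all genes.

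In liver, 0 of 37, 1 of 38, 3 of 40, 4 of 39, 1 of 44 and 0 of 41 listed genes passed from week 4 to week 24, against 0.0506%, 7.49%, 10.6%, 7.43%, 2.47% and 0.837% of all genes. All were higher in HFD mice, as were most called liver genes, with 938 of 1059 at week 12 and 682 of 751 at week 16. Mme, which encodes the peptidase neprilysin, passed at weeks 8, 12 and 16 (0.72, 0.89 and 1.04, adjusted p = 0.040, 0.026 and 0.0083 by limma), with 3.51 ± 1.01 FPKM in CD against 8.17 ± 1.57 FPKM in HFD livers (SD, n = 4) at week 16. Cd44 passed at week 16 (0.72, adjusted p = 0.014), with 0.847 ± 0.265 FPKM in CD against 2.05 ± 0.486 FPKM in HFD livers. Its CD mean was thus under the 1 FPKM of the filter and its HFD mean above it. Cd74 passed at week 12 (0.53, adjusted p = 0.044), a call that was lost after median ratio scaling (adjusted p = 0.059), without the filter (adjusted p = 0.073), with all 12 groups in 1 fit (adjusted p = 0.33) and in 6 of 8 fits without 1 mouse. Rgs2, a regulator of G protein signaling, passed at weeks 12 and 16 (0.67 and 0.59), with CD means of 0.673 and 0.747 FPKM against HFD means of 1.67 and 1.66 FPKM. The HFD group thus brought it past the filter, without which its adjusted p was 0.048 and 0.038, and the week 16 call held in 2 of 8 fits without 1 mouse. Also called were the transcription factor gene Tcf21 at week 16 (0.53), and the leukocyte GTPase gene Rac2 at week 20 (0.73). Of these 9 calls, 7 held after median ratio scaling and 3 in every fit without 1 mouse. With that scaling, calls over all liver genes went from 752 to 655 at week 8 and from 1059 to 1048 at week 12. They went from 751 to 590 at week 16 and from 252 to 294 at week 20. Averaged over 6 weeks, 18 of 39 listed genes passed, 17 higher and 1, Akt1, lower, against 41.3% of all genes. The median difference was 0.14 in the lists and 0.07 over all genes.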

How the data were processed

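RNA of islets and liver was sequenced by the authors from poly(A) libraries made with random hexamers on a BGISEQ-500 instrument. The submitters' processing notes name HISAT2 2.0.4, Bowtie2 2.2.5, RSEM 1.1.12, DESeq2 and GRCm38.p5 without their roles. The authors deposited FPKM per library, rounded to 2 decimals, for 21990 genes, of which 1835 have no values. The table's other columns hold group means and the authors' own comparisons, which were not used. Low values fall on rough steps, but the rounding is too coarse to recover reads, so depth was not known from the table.

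Mice, diets and weeks were taken from the sample labels, and a mouse's islets and liver carry the same number, so the pairing comes from the design. Values were transformed to log2(FPKM + 1). Limma 3.58.1 (R 4.3.3) with trended, robust variances was fitted over all genes that reached 1 FPKM in 50% or more of the libraries compared, with Benjamini-Hochberg adjustment and a threshold of 0.05. Weekly comparisons used the 8 libraries of a tissue and week, and mean effects and weeks in CD mice used a fit of the tissue's libraries. The script was tested on simulated data. Correlations used 100000 permutations within groups (Python 3.11.15, numpy 2.4.6, pandas 2.3.3). Marker lists were averaged on the log2(FPKM + 1) scale. Named genes are the members, listed pathway genes that passed in a week or belong to the ligand and receptor lists, and the 5 genes most like each member among those that reached 1 FPKM in 12 of 48 libraries. The members and lists were chosen with earlier results of these data known. Gene symbols were matched through RefSeq. Replicates are separate mice. Alternatives were another pseudocount, no filter, median ratio scaling, no trend, all 12 groups in 1 fit, insulin left out, the replicate block, a minimum fold change and each library left out.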

Additional observations from a re-analysis of the deposited data

Results flagged for a closer look

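In 4 of the 72 groups of 4 libraries, 1 library lay far from the other 3, its gap divided by the group's range being above Dixon's critical value, a rate near the 1 in 20 that chance gives. For Cxcl12 in CD islets at week 12, CD308 had 0.98 FPKM beside 2.60 to 2.81 FPKM. For Ackr3 in HFD islets at week 20, HFD511 had 2.91 FPKM beside 4.08 to 4.25 FPKM. For Ackr3 in CD liver, CD104 had 0.52 FPKM beside 0.23 to 0.26 FPKM at week 4, and CD304 had 0.35 FPKM beside 0.02 to 0.07 FPKM at week 12.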

How the results depend on the processing

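Differences on the log2 scale are for HFD minus CD or islets minus liver. With a pseudocount of 0.1, the mean effect over 6 weeks in liver moved to 0.65 for Cxcr4 and 0.57 for Ackr3, and islets minus liver to 2.37 for Cxcr4, as the smaller pseudocount widens differences of low values. Without the filter, these receptors gained a test (0.24, 0.18 and 1.16). With insulin left out of islet totals, the islet mean effect was 1.09 for Cxcr4 and 0.83 for Ackr3, and islets minus liver was 2.27 for Cxcr4. The calls of listed genes, summed over 6 weeks, went from 20 to 71 in islets. Calls over all islet genes rose in some weeks of that setting and fell in others. In the weeks where they rose, most tested islet genes were called, so nothing about the lists is read from the rise. With a minimum absolute log2 difference of 1, the calls of listed genes were 0 in islets and 1, in place of 9, in liver. Calls over all genes were not counted with that minimum, so these counts have no background. With all 12 groups in 1 fit the liver had 14 calls of listed genes. In that fit the calls over all liver genes also rose in every week but week 8, when they fell. Nothing about the lists is therefore read from that count. The correlation of Cxcl12 between islets and liver turned to -0.07 after median ratio scaling, and that of Cxcr4 with Ackr3 in liver to -0.01 without the 2 farthest libraries. After median ratio scaling, 8 of the 18 correlations that had passed did not. The cause of these changes was not tested. With 1 library left out at a time, the liver difference of Cxcl12 at week 4 turned to -0.08 without HFD114, in a range of -0.08 to 0.17, and no other difference tested under the filter turned. Among differences without such a test, those of the liver receptors in 3 weeks (-0.01, -0.04 and -0.03) and of islet Cxcl12 at week 4 (-0.16) also turned without 1 library. The difference of islet Cxcr4 at week 4, which was 0.00, ran from -0.16 without HFD113 to 0.12 without CD106. The replicate block, in which islets and liver are paired by mouse, changed no call of the tissue comparison (-5.45, 1.16 and 1.07). Reads behind a value are not known, and receptor levels in liver are near the rounding step.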
